A study of Homo sapiens with 4 samples.

Results

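The super elongation complex genes are 10 genes that encode the complex and its inhibitor, out of 32673 genes measured by RNA sequencing in imatinib-sensitive and imatinib-resistant leukaemia cells. They were taken by symbol, as AFF1, AFF4, ELL, ELL2, MLLT1, MLLT3, CDK9, CCNT1, CCNT2 and HEXIM1, with no threshold on a measured value, although earlier results of these data were known when the set was chosen. The comparison addresses how the transcripts of this machinery differ between the resistant and the sensitive cells. All 10 genes were present in the table and passed the expression filter, which left 15519 genes for testing.

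After RNA polymerase II starts a gene it halts a short way downstream, and release from this pause is a controlled step. The super elongation complex joins the kinase P-TEFb (CDK9 with cyclin T1 or T2, encoded by CCNT1 and CCNT2) to an ELL-family elongation factor and to MLLT1 (ENL) or MLLT3 (AF9), on a long flexible scaffold, AFF1 or AFF4. CDK9 phosphorylates the polymerase and the pausing factors DSIF and NELF, whereas HEXIM1 holds P-TEFb inactive on the 7SK RNA. In acute leukaemias, AFF1, AFF4, ELL, MLLT1 and MLLT3 are fusion partners of KMT2A, and the fusion proteins are known for drawing the complex to HOX and MEIS1 genes.

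Both cell lines derive from TF1, a human leukaemia line that depends on GM-CSF, and both carry BCR-ABL, the fusion kinase that imatinib inhibits. TF1-BA cells received p210 BCR-ABL by retrovirus and are imatinib sensitive, and TF1-BAR cells came from them after long continuous imatinib and are resistant. Each line was sequenced in 2 libraries, with medium containing GM-CSF throughout. Per the labels, 2 μM imatinib was added to the culture of the TF1-BAR cells, so that resistance and the presence of the drug cannot be told apart. The labels do not say whether the drug was removed before RNA extraction, whether either line is a clone, or whether the 2 libraries of a line are separate cultures, and p-values therefore measure only the spread between these libraries. The titles of the TF1-BAR libraries carry the word vector, which the labels do not explain.

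The library sizes by which the FPKM had been divided, as recovered from the values, were 15465497 to 18042299 fragments. Of these, 98.6% to 98.7% lay in the listed genes, so that they do not give the number of reads sequenced. Replicates differed by more than sampling noise (chi-square per degree of freedom 3.75 in TF1-BA and 6.35 in TF1-BAR), and the Pearson correlation of log2 values across genes, which are not independent replicates, was 0.983 and 0.979. Of 8 progenitor markers (KIT, CD34, GATA1, GATA2, TAL1, CSF2RA, CSF2RB and IL3RA), all 8 were detected in both lines, at 6.64 FPKM or more, and 4 were higher in TF1-BAR by limma (adjusted p under 0.05), against 16.3% of all genes tested. Among T cell markers CD3D was lower in TF1-BAR, at 19.2 and 20.7 FPKM in TF1-BA and 5.74 and 6.36 in TF1-BAR (log2 fold change −1.64, adjusted p 0.00282 in limma), while CD3E, CD3G and TRAC were at 0.446 or less, and the highest of the stromal and epithelial markers was at 0.429. Of the B cell markers, CD79A was higher in TF1-BAR, at 1.84 and 2.19 against 3.55 and 3.15 FPKM (0.61, adjusted p 0.026 in limma), and PAX5 was at 0.139 or less. MS4A1 was not analysed here. Because RNA was taken from bulk cultures, fewer cells expressing a gene and less RNA per cell cannot be told apart.

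The 2 genes of the set that rose, MLLT1 and MLLT3, are shown by the stretch just upstream of their RefSeq transcription start (assembly GRCh38.p14), where the polymerase that they help to release is loaded. Capitals mark the letters CACGTG (an E-box, as bound by MYC) and CCAAT on either strand, so that ATTGG is CCAAT on the other strand. Both stretches are on the minus strand and are written 5′ to 3′, MLLT1 at chr19:6279976-6280225 and MLLT3 at chr9:20622544-20622749, the latter trimmed to the bases outside the annotated gene.
MLLT1: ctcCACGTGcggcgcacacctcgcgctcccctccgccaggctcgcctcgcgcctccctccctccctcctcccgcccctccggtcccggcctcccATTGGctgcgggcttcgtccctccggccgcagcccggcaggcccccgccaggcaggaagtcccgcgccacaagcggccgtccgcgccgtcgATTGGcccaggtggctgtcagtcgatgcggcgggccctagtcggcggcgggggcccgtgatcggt
MLLT3: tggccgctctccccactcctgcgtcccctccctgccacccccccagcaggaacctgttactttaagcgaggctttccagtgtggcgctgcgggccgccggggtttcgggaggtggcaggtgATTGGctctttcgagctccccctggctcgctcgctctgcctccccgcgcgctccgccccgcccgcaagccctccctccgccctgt

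Both promoters are rich in CpG dinucleotides and share CCAAT, and the E-box is in MLLT1 alone of the pair. Over the 250 bases before the start, MLLT1 held 34 CpG at 77.2% GC and MLLT3 held 24 CpG at 72.0% GC, against medians of 11 CpG and 58.0% GC over 35116 such windows of all genes. RefSeq windows were at hand for 9 of the 10 genes, with 11 windows among them, and ELL2 was the gene without one. The windows of CDK9, CCNT1 and CCNT2, and a second window of AFF1, lay wholly inside the annotated gene. CCAAT occurred in 7 of the 11 windows and in 32.0% of all windows. CACGTG was found in 3 (AFF4, MLLT1 and CCNT1), against 6.34% of all windows. The ETS letters CCGGAAG were found in 2 (CDK9 and CCNT1), against 8.52%, and TATAAA in 1 (HEXIM1), against 10.7%, each searched on both strands and counted on its own, so that overlapping matches count for both. The matches of CDK9, CCNT1 and CCNT2 thus lay inside the gene, and CCAAT of AFF1 was counted in each of its windows. All matches describe the letters in the windows and nothing about which factors bind.

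Levels are given in FPKM, the fragments of a gene divided by its transcript length and by the library size, so that genes can be compared. In TF1-BA cells the catalytic core was the most abundant, with CDK9 at 21.6 ± 1.17 FPKM (SD, n = 2) and CCNT1 at 17.1 ± 0.975. MLLT1 came next at 14.1 ± 1.25, and the other 7 genes lay between 5.42 (ELL) and 8.71 (HEXIM1). Within that lower group the libraries of ELL2 overlapped those of AFF4 and of CCNT2, so that these neighbours were not separated beyond their spread. In TF1-BAR cells CDK9 was again the highest, at 24.4 ± 0.0579 FPKM, and the libraries of MLLT1 and CCNT1 overlapped below it. MLLT3 moved from the eighth place in TF1-BA to the fourth in TF1-BAR, at 11.0 ± 0.666 FPKM, above the libraries of CCNT2, AFF1 and HEXIM1. ELL2 and ELL were the lowest in TF1-BAR, at 6.15 ± 0.273 and 4.60 ± 0.190 FPKM. Ranked by mean FPKM among all genes tested, the 10 genes ran from the percentile 53.0 (ELL) to 87.9 (CDK9).

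**Figure D1:**
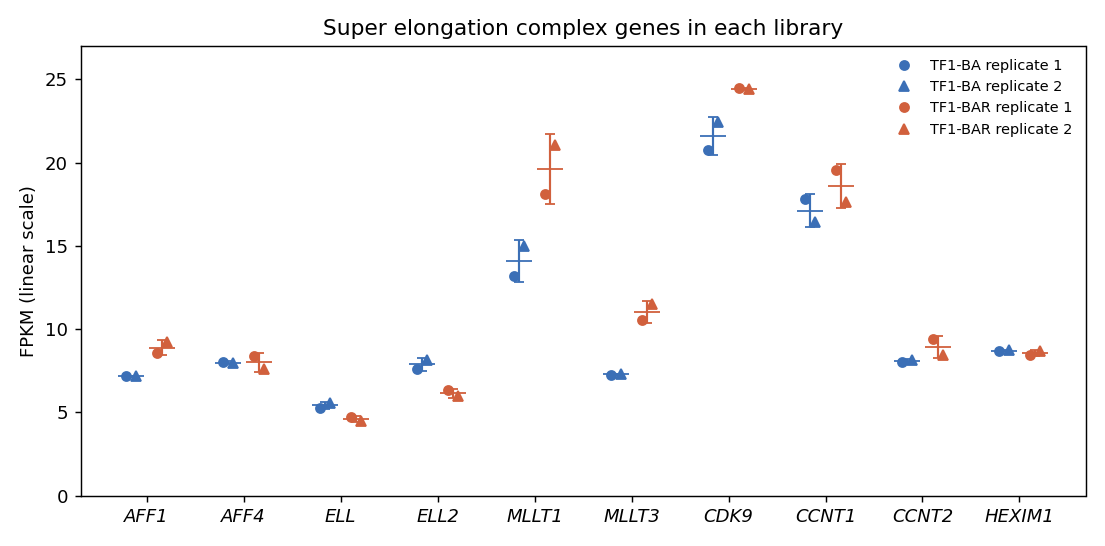
FPKM on a linear scale for each of the 10 genes in the 4 libraries, with TF1-BA in blue and TF1-BAR in red, circles for replicate 1 and triangles for replicate 2, horizontal bars for the mean and error bars for the SD (n = 2). MLLT1 and MLLT3 are higher in both TF1-BAR libraries, ELL2 is lower in both, and AFF4 and HEXIM1 lie at nearly the same level in the 2 lines.

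By limma on log2(FPKM + 0.5), 3 of the 10 genes passed a Benjamini-Hochberg adjusted p of 0.05 (30.0%), against 26.9% of all genes tested. The acetyl-lysine readers MLLT1 and MLLT3 were higher in TF1-BAR, 2 of 10 against a background of 16.3%, and the elongation factor ELL2 was lower, 1 of 10 against 10.5%. The shares of the set were near those of all genes. Differential expression was defined by a log2 fold change of 1 or more in size on top of this, and 0 of the 10 genes passed (0 also at an unadjusted p under 0.05, and 0 by limma voom), against 4.75% of all genes. The libraries of the 2 lines did not overlap for 8 of the 10 genes, AFF4 and CCNT1 being the exceptions, against 69.3% of all genes. The median log2 fold change of the set, TF1-BAR minus TF1-BA, was 0.12, beside 0.066 over all genes tested, and 7 of the 10 values were positive, against 57.3% of all genes tested. The number was 8 after rescaling to TPM and 6 under upper-quartile scaling, quantile normalization and the correction for GC content and length, which was chosen after seeing the data. The median over all genes tested moved as well. It was 0.137 in TPM, 0.0426 under upper-quartile scaling, −0.00176 under quantile normalization and 0.000718 after the correction. Without TF1-BA replicate 1, TF1-BA replicate 2 or TF1-BAR replicate 2, the number that passed was 0 (2, 2 and 4 at an unadjusted p under 0.05), and without TF1-BAR replicate 1 it was 2. With 2 libraries per line an exact permutation test of any single gene, two-sided, cannot go below p = 0.333.

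**Figure D2:**
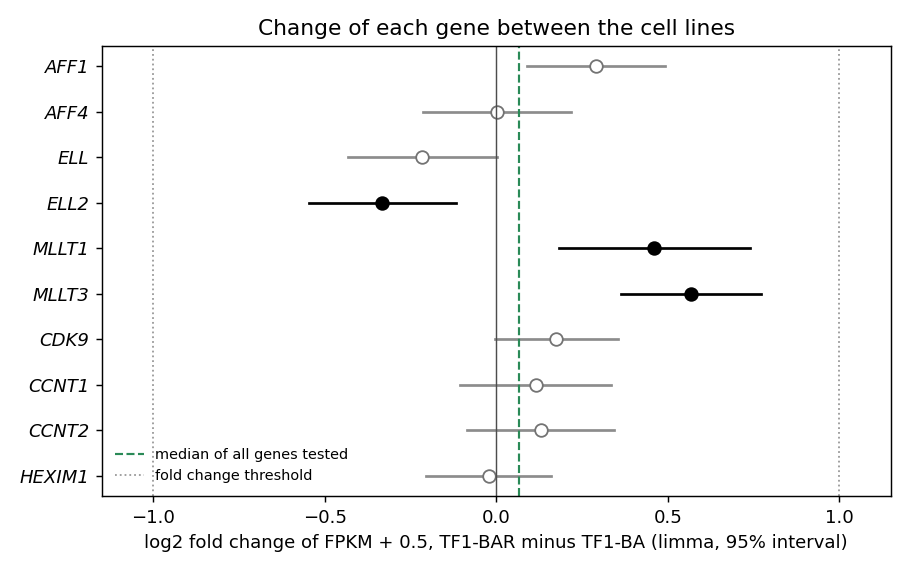
Log2 fold change of FPKM + 0.5, TF1-BAR minus TF1-BA, for each of the 10 genes, with bars for the 95% interval from limma and filled points for an adjusted p under 0.05. The green dashed line is the median of all genes tested (0.066), and no point reaches the dotted lines at a log2 fold change of 1 in size.

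The YEATS-domain proteins MLLT1 and MLLT3 bind acetylated and crotonylated lysines of histones and couple the complex to chromatin and to the PAF1 complex. MLLT3 also maintains the self-renewal of human haematopoietic stem cells. MLLT3 (ENSG00000171843, minus strand, chr9:20341665-20622543) was at 7.27 and 7.29 FPKM in TF1-BA and at 10.6 and 11.5 in TF1-BAR. Both TF1-BAR libraries were above both TF1-BA libraries, on 916 to 1504 recovered fragments per library. Its mean rose 1.52-fold, with a log2 fold change of 0.57 (SE 0.0792, 95% interval 0.36 to 0.77) and an adjusted p of 0.0117 in limma. MLLT3 passed the threshold in 13 of 16 alternative settings, whose adjusted p ran from 0.00014 to 0.1. It did not pass without TF1-BA replicate 1 (0.0982), TF1-BA replicate 2 (0.1) or TF1-BAR replicate 2 (0.053). Of the genes within 5 Mb of MLLT3, 25 were tested and their median log2 fold change was −0.24, opposite in sign to that of MLLT3.

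MLLT1 (ENSG00000130382, minus strand, chr19:6210379-6279948) was at 13.2 and 15.0 FPKM in TF1-BA and at 18.1 and 21.1 in TF1-BAR. The groups did not overlap, although the replicates of this gene were spread more widely than those of MLLT3. Its mean rose 1.39-fold, with a log2 fold change of 0.46 (SE 0.108, 95% interval 0.18 to 0.74) and an adjusted p of 0.0368 in limma. The threshold was passed in 11 of 16 alternatives, with adjusted p from 0.00199 to 0.198. It was missed with no filter on low values (0.106), with eBayes without trend (0.0682), and without TF1-BA replicate 1 (0.198), TF1-BA replicate 2 (0.118) or TF1-BAR replicate 2 (0.119). The median of the 227 genes tested within 5 Mb was 0.092. MLLT1 made up 64.5% and 67.2% of the summed FPKM of the pair in TF1-BA and 63.2% and 64.7% in TF1-BAR, which overlap. Their sum went from 21.4 ± 1.26 FPKM to 30.6 ± 2.77 (SD, n = 2), with no overlap between the lines.

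ELL and ELL2 raise the elongation rate of the polymerase by suppressing transient pausing, and ELL2 is best known for driving immunoglobulin secretion in plasma cells. ELL2 (ENSG00000118985, minus strand, chr5:95885098-95962071) was at 7.61 and 8.14 FPKM in TF1-BA and at 6.35 and 5.96 in TF1-BAR. Both resistant libraries were lower, on 702 to 1006 fragments per library. Its mean in TF1-BAR was 0.781 of that in TF1-BA, with a log2 fold change of −0.33 (SE 0.0829, 95% interval −0.55 to −0.12) and an adjusted p of 0.0428 in limma. This call was close to the threshold and held in 7 of 16 alternatives, with adjusted p from 0.00864 to 0.25. It was lost whichever library was left out (0.173 without TF1-BA replicate 1, 0.25 without TF1-BA replicate 2, then 0.0676 and 0.123 without the first and the second TF1-BAR library). Also without the call were the fit with no filter (0.0882), eBayes without trend (0.0676), the replicate block (adjusted p = 0.0624), TPM rescaling (0.0676) and correction for GC content and length (0.0501), while the log2 fold change stayed between −0.38 and −0.28 in all 16.

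ELL (ENSG00000105656, minus strand, chr19:18442663-18522127) had the lowest level of the set, at 5.29 and 5.56 FPKM in TF1-BA and 4.74 and 4.47 in TF1-BAR. The libraries did not overlap, but the log2 fold change of −0.22 (SE 0.0842, 95% interval −0.43 to 0.0015) did not pass, with an adjusted p of 0.12 in limma and in none of the 16 alternatives a value under 0.0586. The interval allows a fall of 0.43 on the log2 scale as well as no change. The sum of ELL and ELL2 was 12.9 and 13.7 FPKM in TF1-BA against 11.1 and 10.4 in TF1-BAR. ELL made up 40.8% ± 0.288 of that sum in TF1-BA and 42.8% ± 0.0766 in TF1-BAR (SD, n = 2), a difference of 2.01 percentage points.

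The scaffolds AFF1 and AFF4 are intrinsically disordered proteins on which the other subunits assemble. AFF1 (ENSG00000172493, plus strand, chr4:86935002-87141054) was at 7.19 and 7.16 FPKM in TF1-BA and at 8.57 and 9.22 in TF1-BAR. The groups did not overlap, and the log2 fold change of 0.29 (SE 0.0779, 95% interval 0.09 to 0.49) fell just short of the threshold, with an adjusted p of 0.0508 in limma. It passed in 4 of 16 alternatives, which ranged from 0.0112 to 0.241, with adjusted p of 0.0432 at a mean FPKM of at least 1, 0.0313 in TPM, 0.0482 with robust eBayes and 0.0112 by limma voom. AFF4 (ENSG00000072364, minus strand, chr5:132875379-132963634) was at 8.04 and 7.94 FPKM in TF1-BA and at 8.41 and 7.60 in TF1-BAR. The TF1-BAR libraries lay on either side of the TF1-BA libraries, and the log2 fold change of 0.0020 had a 95% interval of −0.21 to 0.22 and an adjusted p of 0.988 in limma. AFF1 was 47.2% and 47.4% of the AFF1 and AFF4 sum in TF1-BA and 50.5% and 54.8% in TF1-BAR, so that the TF1-BAR libraries differed from each other by more than the lowest of them differed from TF1-BA.

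P-TEFb is the kinase of the complex, and CDK9 needs a T-type cyclin for activity. CDK9 (ENSG00000136807, plus strand, chr9:127785679-127790787) was at 20.8 and 22.4 FPKM in TF1-BA and at 24.5 and 24.4 in TF1-BAR, with a log2 fold change of 0.18 (SE 0.0698, 95% interval −0.0046 to 0.36, adjusted p 0.125 in limma). CCNT1 (ENSG00000129315, minus strand, chr12:48688458-48716998) was at 17.8 and 16.4 against 19.5 and 17.6 FPKM, and the lines overlapped (log2 fold change 0.12, 95% interval −0.10 to 0.34, adjusted p 0.356). CCNT2 (ENSG00000082258, plus strand, chr2:134918235-134959342) was at 8.04 and 8.16 against 9.38 and 8.47 FPKM (log2 fold change 0.13, 95% interval −0.08 to 0.34, adjusted p 0.292). All 3 P-TEFb genes had small positive values, and none of them passed under any of the 16 alternatives. CCNT1 made up 66.8% to 68.9% of the summed cyclin T FPKM in TF1-BA and 67.6% in both TF1-BAR libraries. The ratio of summed cyclin T to CDK9, chosen after its values were seen, was 1.245 and 1.097 in TF1-BA and 1.181 and 1.071 in TF1-BAR, which overlap.

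HEXIM1 (ENSG00000186834, plus strand, chr17:45148502-45152101), the P-TEFb inhibitor, is encoded in 1 exon. It was at 8.68 and 8.73 FPKM in TF1-BA and at 8.46 and 8.67 in TF1-BAR, on 480 to 564 fragments per library. The lowest TF1-BA library and the highest TF1-BAR library were nearly equal, and the log2 fold change of −0.022 had a 95% interval of −0.21 to 0.16 (adjusted p 0.838 in limma). HEXIM1 stood at 0.418 and 0.389 of the CDK9 level in TF1-BA and at 0.346 and 0.356 in TF1-BAR. This ratio did not overlap between the lines, as was also so for the levels of 69.3% of all genes, and neither HEXIM1 nor CDK9 passed.

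**Figure D3:**
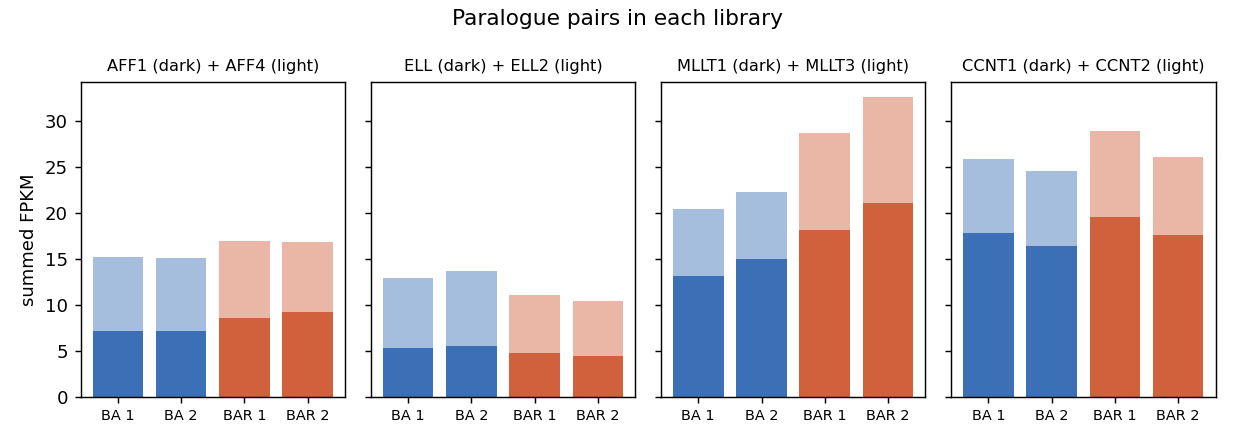
Summed FPKM of the 4 pairs of paralogues in each library on a linear scale from 0, with the first named gene in the dark shade and the second in the light shade, TF1-BA in blue and TF1-BAR in red. The MLLT1 and MLLT3 pair goes from 20.5 and 22.2 FPKM in TF1-BA to 28.7 and 32.6 in TF1-BAR, and the ELL and ELL2 pair goes the other way, from 12.9 and 13.7 to 11.1 and 10.4.

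The ratio of summed MLLT1 and MLLT3 to summed ELL and ELL2, chosen after its values were seen, was 1.59 and 1.62 in TF1-BA and 2.59 and 3.12 in TF1-BAR. The summed FPKM of all 10 genes was 103.9 and 106.8 in TF1-BA against 118.6 and 119.0 in TF1-BAR.

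Transcripts that overlap the 10 genes or copy them were low. The libraries came from a kit that does not mark strand, so reads of a gene and of an antisense partner cannot be told apart. Antisense transcripts reached at most 0.212 FPKM at ELL, 0.0869 at ELL2, 0.119 at MLLT1, 0.342 at CCNT2 (CCNT2-AS1) and 0.159 at HEXIM1. The ELL2 pseudogene ELL2P1 reached 0.170 FPKM. At AFF1 the minus strand holds C4orf36, at up to 0.674 FPKM, and the pseudogene TECRP1, at up to 1.71.

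The scaffold paralogues AFF2 and AFF3 were higher in TF1-BAR, and the ELL partner EAF2 was lower. Of AFF2, AFF3, ELL3, EAF1 and EAF2, 4 were tested, 2 were higher and 1 was lower (against 16.3% and 10.5% of all genes), with a median log2 fold change of 0.36. AFF2 was at 5.21 ± 0.202 FPKM in TF1-BA and 10.5 ± 0.423 in TF1-BAR (SD, n = 2), a log2 fold change of 0.94 (SE 0.0796, adjusted p 0.00539 in limma). AFF3 was at 1.48 ± 0.118 and 3.58 ± 0.118 FPKM, a log2 fold change of 1.04 (SE 0.106, adjusted p 0.00685 in limma). On this scale AFF3 alone of the elongation genes outside the set reached 1, while by limma voom AFF2 did so too (1.01, and AFF3 1.28). As a share of all AFF1 to AFF4 FPKM, a quantity chosen after its values were seen, AFF2 and AFF3 together made up 29.8% and 31.4% in TF1-BA and 44.6% and 46.2% in TF1-BAR. EAF2, which binds ELL proteins and stimulates them, was at 12.9 ± 0.502 FPKM in TF1-BA and 7.38 ± 0.349 in TF1-BAR (log2 fold change −0.77, SE 0.0784, adjusted p 0.00686 in limma). EAF1 was at 3.78 and 4.59 FPKM in TF1-BA and at 3.63 and 3.42 in TF1-BAR (adjusted p 0.232). ELL3 was listed at 0.019 FPKM in 1 library and at 0 in the other 3.

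The other proteins of the 7SK particle, which holds P-TEFb inactive, did not pass in limma. Of HEXIM2, LARP7 and MEPCE, 2 of 3 genes were tested and 0 passed in limma (0 also at an unadjusted p under 0.05, and 1, LARP7, by limma voom). LARP7, which binds the 7SK RNA, was at 6.01 and 5.29 FPKM in TF1-BA and at 4.94 and 3.93 in TF1-BAR (log2 fold change −0.32, adjusted p 0.136), and MEPCE, which caps that RNA, had a log2 fold change of 0.13 (adjusted p 0.332). HEXIM2, the paralogue of HEXIM1, was below the filter, at 0.244 to 0.571 FPKM.

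Outside the set, 37 of 39 listed elongation genes were tested, of which 7 were higher and 5 lower (32.4%, against 26.9% of all genes), with a median log2 fold change of −0.024. The count was 0 without TF1-BA replicate 1 and without TF1-BA replicate 2 (9 and 11 at an unadjusted p under 0.05), and 9 and 2 without the first and the second TF1-BAR library. Within the PAF1 complex, which MLLT1 and MLLT3 contact, all 6 genes had negative values, where 57.3% of all genes tested were positive. The same count was found under the 3 other scalings and the correction for GC content and length, where the median over all genes ran from −0.0018 to 0.14. In the main fit 2 of the 6 fell (against 10.5% of all genes): LEO1 from means of 26.8 to 21.2 FPKM (log2 fold change −0.33, adjusted p 0.0252 in limma) and CDC73 from 11.9 and 10.5 to 8.78 and 7.22 FPKM (−0.46, adjusted p 0.0483). The list had a median of −0.17. In the little elongation complex, which shares ELL and EAF proteins and serves small nuclear RNA genes, 2 of 3 genes rose (against 16.3% of all genes): the scaffold ICE1 from 8.96 to 13.8 FPKM (log2 fold change 0.59, adjusted p 0.0121) and ZC3H8 from 5.65 to 8.05 (0.48, adjusted p 0.0296).

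The counts of the next 4 lists stand against 26.9% of all genes that passed, 16.3% higher and 10.5% lower. Of 6 genes of the pausing factors DSIF and NELF, 1 passed, SUPT4H1, the small DSIF subunit. SUPT4H1 was at 6.61 and 6.94 FPKM in TF1-BA and at 9.70 and 12.1 in TF1-BAR (log2 fold change 0.64, adjusted p 0.0226 in limma). NELFB, the highest of that list, had a log2 fold change of 0.0061. Of the other kinases of the polymerase tail, CDK13 was higher (log2 fold change 0.33, adjusted p 0.0397) and CCNK, the cyclin of CDK12 and CDK13, was lower (−0.36, adjusted p 0.0324), while CDK12 had a value of −0.032. Of 7 histone chaperones and cleavage factors only the TFIIS paralogue TCEA2 passed (log2 fold change 0.53, adjusted p 0.0139), and the genes of its chromosome, chromosome 20, had a median of 0.39. TCEA1, the highest of that list, had a log2 fold change of −0.13. Of 6 KMT2A and DOT1L partners only MLLT10, a cofactor of DOT1L, passed in limma, and it was lower (−0.54, adjusted p 0.0146) on chromosome 10, whose genes had a median of −0.35. By limma voom KMT2A (adjusted p 0.0118), PSIP1 (0.027) and MLLT6 (0.0463) passed as well. KMT2A itself was at 11.02 and 11.47 FPKM in TF1-BA and at 13.04 and 14.23 in TF1-BAR (log2 fold change 0.27, adjusted p 0.065). For the 10 genes of the set the medians of their chromosomes lay between −0.014 (chromosome 4) and 0.11 (chromosome 17).

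**Figure D4:**
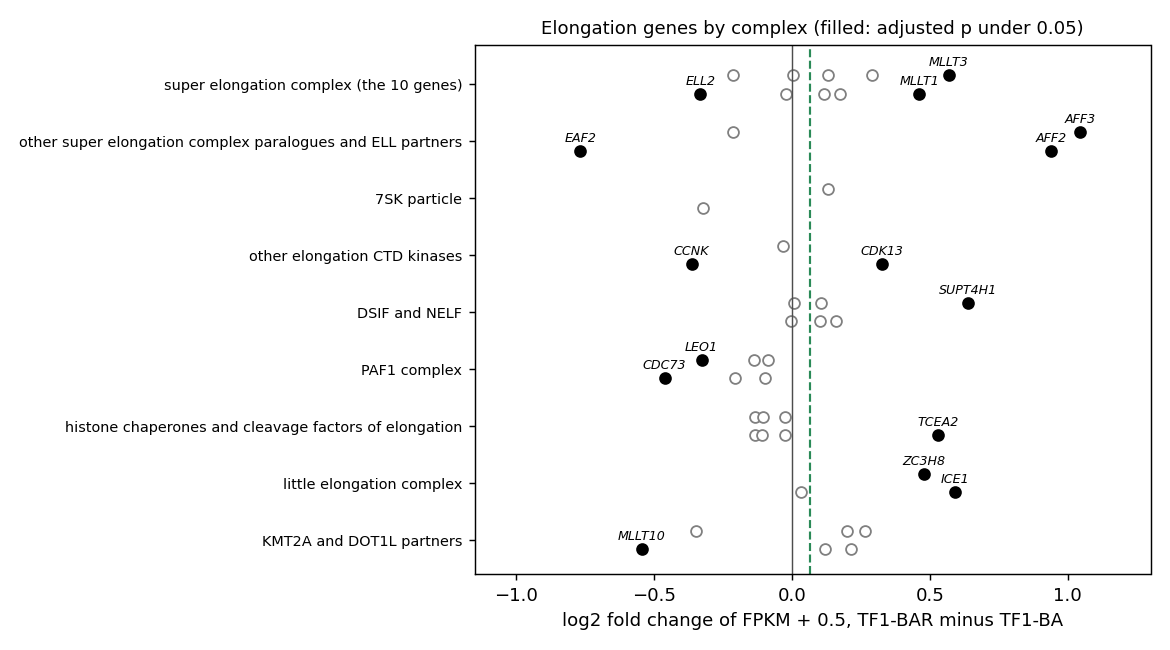
Log2 fold change of FPKM + 0.5, TF1-BAR minus TF1-BA, for the tested genes of the super elongation complex and of 8 related lists, 1 point per gene, placed up or down within a row only for legibility. Filled points have an adjusted p under 0.05 and are named, and the green dashed line is the median of all genes tested (0.066); all 6 PAF1 complex genes lie to the left of 0.

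Genes at which the complex is known to act moved in both directions. Of 9 such genes, 6 were tested, 1 was higher and 3 were lower (against 16.3% and 10.5% of all genes), with a median log2 fold change of −0.33, which includes the paired heat shock copies. MYC rose from 183 to 249 FPKM (log2 fold change 0.45, adjusted p 0.0292 in limma), and is among the genes that the study itself displayed from these libraries. The immediate early gene EGR1 fell from 1.98 to 1.05 FPKM (−0.68, adjusted p 0.0307). The heat shock genes HSPA1A (−0.77, adjusted p 0.0132) and HSPA1B (−0.83, adjusted p 0.0211) were both lower, and their near-identical sequences make the split of reads between them uncertain. FOS, CYP26A1 and HOXA9 were below the filter, FOS at 0.192 to 0.519 FPKM. MEIS1, a target of KMT2A fusions, was at 0.390 to 0.706 FPKM and HOXA10 at 1.29 to 1.51, and neither passed in limma. MEIS1 passed by limma voom, with a log2 fold change of 0.60 and an adjusted p of 0.0222, against 0.31 on the scale with the added 0.5 FPKM.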

How the data were processed

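RNA of TF1-BA and TF1-BAR cells was sequenced in 2 libraries per line. The authors mapped paired-end reads to GRCh38 with TopHat2 2.0.13, ran Cufflinks, Cuffmerge and Cuffdiff (2.2.0 in the submitters' processing notes) with default parameters, and deposited FPKM per gene and library, without log transformation. The annotation release and any use of strand in counting are not given in the sources used here.

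Library sizes of 15465497 to 18042299 fragments were recovered as the sizes at which FPKM times gene length became whole in all 4 libraries, within 0.002 fragments. Of the 30853 genes above 0, 14306 were whole at the GENCODE 44 exon length and 16537 at a fitted length. The fitted length was the shortest that gave whole fragments, or the deposited span where that did too. Fragments of such genes can therefore be understated. Fragment numbers cover counting error only.

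Because the deposited unit is FPKM, limma 3.58.1 in R 4.3.3 (lmFit, eBayes with trend) was run on log2(FPKM + 0.5) in place of the study's count-based test. Genes below a mean of 0.5 FPKM were left out, and p-values of the 15519 others were adjusted together by the Benjamini-Hochberg method. Fold changes on this scale understate those of low genes. The thresholds, an adjusted p of 0.05 and an absolute log2 fold change of 1, follow the study's methods. All 10 genes were to be named, and of the other lists each gene that passed and the one with the highest mean FPKM in its list; EAF1, ELL3, LARP7, HEXIM2, KMT2A, FOS, CYP26A1, HOXA9, MEIS1, HOXA10, MLLT6, C4orf36 and TECRP1 were named after their values were seen. The 10 genes and the lists, though taken by symbol, were chosen with earlier results of these data known. Some genes of the lists are not reported here and were left out of the counts.

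14 alternative settings were 2 other pseudocounts, 2 other filters, 3 scalings, 2 forms of eBayes, a replicate block and leaving out each of the 4 libraries. A further 2, chosen after seeing the data, were limma voom on the recovered fragments and a correction of the log2 fold changes for GC content, length of exons and mean level (splines with 4 degrees of freedom). Only the main limma fit was also run on simulated data, which had the same dispersion for every gene and in both lines, unlike these libraries. The outcome is not given here, and the alternatives were not run on simulated data. Promoter windows were taken from RefSeq (GRCh38.p14) and positions from the deposited table.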

Additional observations from a re-analysis of the deposited data

How the results depend on the processing

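Of the log2 fold changes of the 10 genes under alternatives that kept all libraries, 105 kept their direction and side of the threshold, 7 lost the threshold, 4 gained it and 4 changed sign. With 1 library left out, 28 kept both, 10 lost the threshold and 2 changed sign. The 3 genes that passed became 1 with no filter on low values and 1 with eBayes without trend, and 0 to 2 with 1 library left out. The number differentially expressed was 0 throughout. The 12 elongation genes outside the set that passed became 5 with no filter and 0 to 9 with 1 library left out: 0 without either TF1-BA library (9 and 11 at an unadjusted p under 0.05), then 9 and 2 on leaving out the first and the second TF1-BAR library. With no filter 6 of the 10 genes had an unadjusted p under 0.05. AFF4 changed sign under upper-quartile scaling (−0.023), quantile normalization (−0.042) and correction for GC content and length (−0.0091), and ranged from −0.067 to 0.071 with 1 library left out. HEXIM1 became positive in TPM (0.044). The difference in the CCNT1 share, −0.282 percentage points, ranged from −1.32 to 0.75 with 1 library left out. Except where named, the causes were not tested.

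The replicate numbers come from the sample titles, and no source ties cultures of the same number to each other; the correlation of same-numbered deviations was 0.0646. With the replicate number as a replicate block, 2 of the 10 genes passed instead of 3, since ELL2 had an adjusted p of 0.0624, and 11 elongation genes outside the set passed instead of 12. With 2 libraries per line, the 95% intervals of genes that did not pass are wide enough to allow a log2 fold change of 0.49 for AFF1 and −0.43 for ELL.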
